A study of Mus musculus with 24 samples.

Results

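Counts of 9 genes of steroid hormone signalling were followed through RNA-sequencing libraries of mouse gastrocnemius, the large calf muscle. They are Esr1, Esr2, Gper1, Pgr, Nr3c1 and Nr3c2, which encode receptors, Nrip1 and Ncoa1, which encode coregulators of nuclear receptors, and Greb1, a target gene of the oestrogen receptor. The members were taken by symbol, after matching Ensembl identifiers, from the 54752 gene identifiers of the deposited count tables. Floxed Numb and Numbl were present in every animal, written Numb(f/f)/NumbL(f/f) in the labels. Animals labelled HSA-MCM also carried MerCreMer, a Cre recombinase fused to mutated ligand-binding domains of the mouse oestrogen receptor, driven in muscle fibres by the promoter of human skeletal actin. They are called transgene here, and animals without it are called flox. Each sex and genotype was given vehicle or tamoxifen, which makes 8 groups of 3 libraries: transgene females, flox females, transgene males and flox males, each after vehicle and after tamoxifen. The study's design crosses tamoxifen with the transgene, and the comparisons below ask how the 9 genes differed with each.

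The title of 3 transgene male libraries says vehicle control, but their treatment field says tamoxifen. The title was followed, and every transgene male comparison rests on that choice. The 6 flox males are titled WT and were grouped by their genotype field. Age, tamoxifen dose and the time between treatment and collection were not given in the sources used here. Replicates carry separate numbers, but nothing says that each was a separate animal, so p-values reflect only how far these libraries spread, which may be technical in part. Transgene females, flox females and males lie in 3 tables. Among females, genotype and table cannot be told apart, and neither can sex and table, so such levels are set side by side without a test.

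Steroid hormones enter cells and bind nuclear receptors, which are held by chaperones until hormone binds and then act on DNA as transcription factors. Esr1 and Esr2 encode the oestrogen receptors alpha and beta, Pgr the progesterone receptor, Nr3c1 the glucocorticoid receptor and Nr3c2 the mineralocorticoid receptor, while Gper1 encodes a membrane receptor of the G protein-coupled class that oestrogen activates. Bound receptors recruit coactivators such as NCOA1 (SRC-1), a histone acetyltransferase, or corepressors such as NRIP1 (RIP140), which in muscle is known as a brake on oxidative metabolism. Tamoxifen binds the oestrogen receptors, as an agonist in some tissues and an antagonist in others, and it also activates GPER1. In muscle the glucocorticoid receptor is known for its part in wasting and in fuel choice.

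Total counts per library were 31219445 to 39142101 for transgene females, 36099031 to 43014516 for flox females, and 21516819 to 29982077 for the 12 males. Levels are given as CPM, counts relative to the library total after TMM scaling over all 24 libraries. Muscle fibre markers dominated every library, with summed levels of 126200 to 226700 CPM over 8 genes. Numb, one of the genes to be deleted, was 20.7 to 23.3 CPM after vehicle and 18.6 to 19.0 CPM after tamoxifen in transgene females, without overlap, and 20.95 to 25.1 CPM against 17.3 to 19.8 CPM in flox females, also without overlap. In transgene males it was 18.1 to 20.6 CPM after vehicle and 17.5 to 20.4 CPM after tamoxifen, and in flox males 17.2 to 20.1 CPM against 15.7 to 16.5 CPM, so tamoxifen-treated transgene males lay above tamoxifen-treated flox males. Of all genes, 22.56% did not overlap in transgene females, 14.5% in flox females and 27.79% in flox males. Numbl, the other floxed gene, had a higher mean after tamoxifen in every stratum. Its mean went from 3.19 to 4.31 CPM in transgene females and from 2.84 to 3.77 CPM in flox females. In transgene males it went from 3.01 to 3.79 CPM, and in flox males from 3.92 to 5.63 CPM. The third flox male vehicle library stood apart: Hspa1a, a heat-shock gene, was at 254.9 CPM there against 10.8 and 7.05 CPM in the other two. The flox male and averaged results named below that it enters are given without it as well where it changed the call or moved the value by over 1.5 times, and for Esr1, Ncoa1, Nr3c1, Nr3c2, Stc2, Ret and Cebpd also where it did not.

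Divided by exon length, the glucocorticoid receptor gene had the highest level of the 9 in the 12 flox libraries, where Esr1 counts come from the endogenous gene alone. Nr3c1 was at a median of 13.3 CPM per kb of exon (8.67 to 15.2), above Ncoa1 in 12 of 12 libraries, with ranges that did not overlap. Ncoa1 was at 4.74 CPM per kb (3.92 to 5.28), with its whole range above those of Esr1 at 2.34 (1.68 to 3.11) and Nr3c2 at 2.20 (1.72 to 2.83). Nrip1 at 2.45 (1.40 to 7.75) overlapped all 3 of these, and stood below Ncoa1 in 8 of 12 libraries and above Esr1 in 7. Nor could Esr1 and Nr3c2 be ordered, since Esr1 was above Nr3c2 in 8 of 12. Gper1 was lower than these, at 0.414 CPM per kb (0.254 to 0.549), and below Nr3c2 in all 12 libraries. Greb1 was at 0.0721 CPM per kb (0.0256 to 0.187). Esr2 and Pgr were close to the limit of detection, at medians of 0.0134 and 0.00362 CPM per kb. In bulk muscle these values do not say which cells hold the RNA, and fewer cells of a type and less RNA per cell cannot be told apart.

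**Figure D1:**
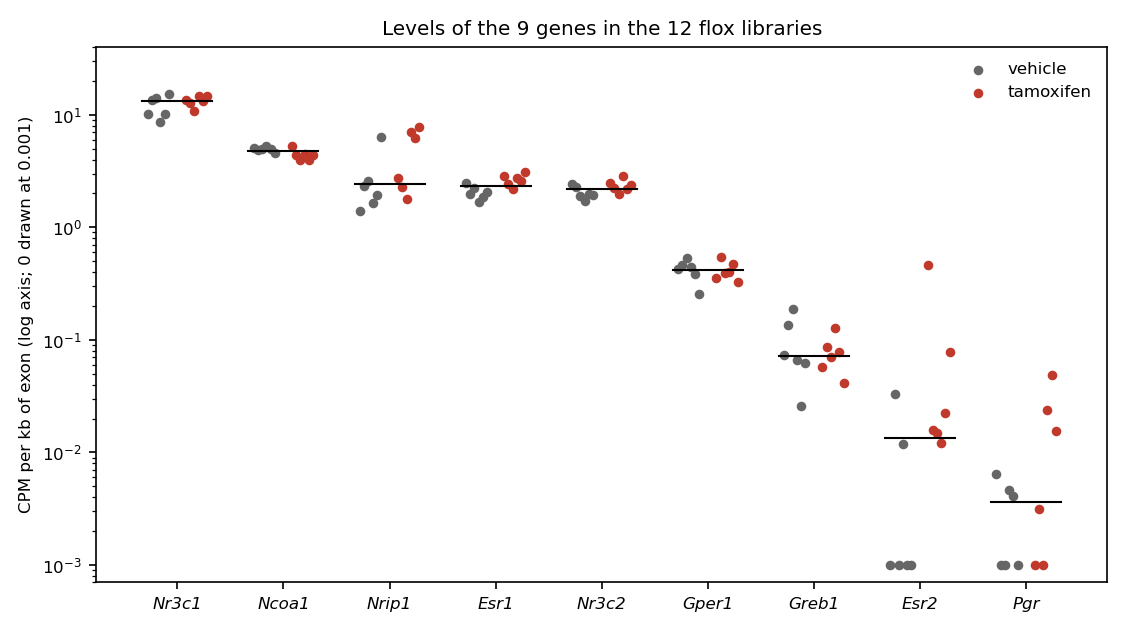
Levels of the 9 genes in the 12 flox libraries, in CPM per kb of exon on a log axis, each point a library coloured by treatment and each bar the median of the 12; libraries at 0 are drawn at 0.001. Nr3c1 lies above all others, Ncoa1 lies above Esr1 and Nr3c2 while Nrip1 spans all 3, and Esr2 and Pgr reach 0.

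Counts assigned to Esr1 (chr10:4611593-5005614, + strand, GRCm38) separated the genotypes completely. In the 12 transgene libraries they ran from 14278 to 53231, or 391.8 to 1982 CPM, and ranked Esr1 between the 50th and the 238th most counted gene of its library. In the 12 flox libraries they ran from 573 to 1327, or 22.9 to 42.5 CPM, at ranks 2702 to 4450. Reads from the receptor part of MerCreMer are assigned to Esr1, so the level of the endogenous gene in transgene animals cannot be read from these counts. The flox mean was between 2.38% and 3.76% of the transgene mean of the same sex and treatment.

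Among males, where both genotypes share a table, Esr1 was the one member of 7 tested whose assigned counts differed between transgene and flox. Those of transgene males include MerCreMer reads, so this outcome was set by the design and does not test the endogenous gene. After vehicle Esr1 was 630.1, 1135 and 1464 CPM in transgene males and 22.9, 25.5 and 28.4 CPM in flox males. That is a log2 fold change of 5.38 ± 0.38 (SE; edgeR quasi-likelihood test, Benjamini-Hochberg adjusted p = 9.45e-05), where 0.947% of all genes tested were called. After tamoxifen it was 976.9, 1038 and 1982 CPM against 34.9, 37.4 and 42.5 CPM, a log2 fold change of 5.12 ± 0.37 (edgeR, adjusted p = 0.000124), where 5.23% of genes were called. No other member passed the test between male genotypes. Ncoa1 was 0.26 ± 0.11 higher on the log2 scale in transgene males after vehicle (edgeR, adjusted p = 0.245) and 0.28 ± 0.11 after tamoxifen (adjusted p = 0.159). Nr3c1 differed by 0.42 ± 0.17 after tamoxifen (edgeR, adjusted p = 0.182).

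The level of the Esr1 reads in transgene animals varied more between libraries than that of the endogenous gene in flox animals. The highest library was 3.55 times the lowest among transgene females after tamoxifen, where the values were 391.8, 926.9 and 1392 CPM. It was 1.32 times the lowest among transgene females after vehicle (877.5, 1045 and 1157 CPM). In the 4 flox groups this ratio lay between 1.22 and 1.30. Tamoxifen groups overlapped vehicle groups in both transgene sexes, and neither log2 fold change, of -0.17 ± 0.46 in females and 0.31 ± 0.31 in males, passed the test (edgeR, adjusted p = 0.901 and 0.827).

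**Figure D2:**
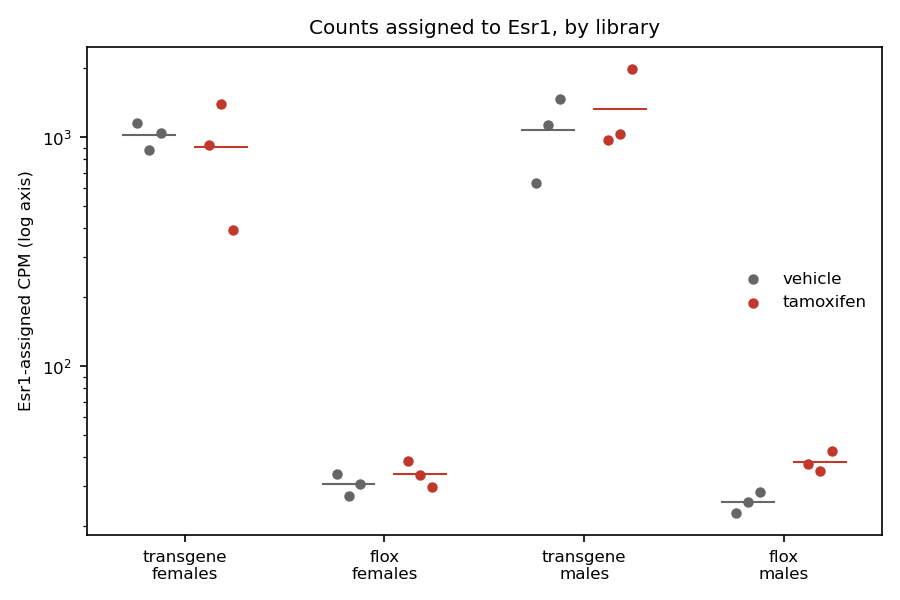
CPM assigned to Esr1 in each of the 24 libraries on a log axis, with a bar at the mean of each group of 3. The 12 transgene libraries lie at 391.8 CPM or more and the 12 flox libraries at 42.5 CPM or less.

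In flox animals, where the reads are endogenous, Esr1 was higher in every tamoxifen-treated male than in every vehicle-treated male. The values were 22.9, 25.5 and 28.4 CPM after vehicle and 34.9, 37.4 and 42.5 CPM after tamoxifen, a log2 fold change of 0.58 ± 0.32. Of all genes tested in flox males, 27.79% also had groups that did not overlap. This did not pass the test when all 12 males were fitted together (edgeR, adjusted p = 0.391), a fit that shares its spread with the transgene males, nor without the third vehicle library (0.65, adjusted p = 0.452). When only the 6 flox males were fitted the log2 fold change was 0.58 and passed (edgeR, adjusted p = 0.0122). In flox females the groups overlapped, at 27.03, 30.5 and 33.9 CPM after vehicle and 29.8, 33.4 and 38.7 CPM after tamoxifen (log2 fold change 0.16 ± 0.11, edgeR, adjusted p = 0.759).

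Tamoxifen and vehicle were compared within each sex and genotype, and none of the 7 members with enough counts passed the edgeR test in any of these 4 comparisons. In transgene females 1.32% of all genes were called, and 3 members had an unadjusted p under 0.05, as did 16.8% of all genes. There DESeq2 and limma-voom each called 1, Nrip1. In flox females 0.131% of genes were called, and 1 member and 8.65% of genes had an unadjusted p under 0.05. In transgene males 0.889% were called, and it was 1 member and 10.1% of genes. In flox males 2.89% were called, and it was 2 members and 17.5% of genes. Groups did not overlap for 22.56% of all genes in transgene females, 14.5% in flox females and 13.78% in transgene males, the background for each statement of overlap below. DESeq2 and limma-voom called 0 members in these last 3. Averaged over the 4 strata of sex and genotype, 3 of 7 members passed, where 8.83% of all genes did: Nrip1 and Nr3c1 were higher (3.95% of genes higher) and Ncoa1 was lower (4.88% lower). DESeq2 and limma-voom also called 3 members. The median log2 fold change over the 7 tested members, Esr1 with its MerCreMer reads among them, was 0.21, and over all genes 0.001.

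Nrip1 (chr16:76287400-76373827, - strand), the corepressor gene, gave the largest of these averaged changes, a log2 fold change of 0.81 ± 0.20, or 1.75-fold (edgeR, adjusted p = 0.0165). Its mean was higher after tamoxifen in 4 of 4 strata. In transgene females it was 21.8, 23.4 and 39.6 CPM after vehicle and 64.8, 67.2 and 70.3 CPM after tamoxifen, so the groups did not overlap. In transgene males it was 32.6, 42.2 and 44.5 CPM against 51.2, 63.5 and 87.2 CPM, again without overlap. In flox females it was 16.1, 26.5 and 29.6 CPM against 20.6, 26.2 and 31.7 CPM, and the groups lay over each other. In flox males it was 18.8, 22.2 and 72.4 CPM after vehicle, and 71.5, 80.5 and 88.8 CPM after tamoxifen. The high flox male vehicle value belongs to the third library, the one that stood apart.

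Within strata the log2 fold change of Nrip1 was 1.27 ± 0.23 for transgene females (edgeR, adjusted p = 0.0586), 0.12 ± 0.27 for flox females (0.943), 0.76 ± 0.46 for transgene males (0.656) and 1.09 ± 0.46 for flox males (0.268). Without the third flox male vehicle library the flox male value was 1.96 and passed (adjusted p = 0.00242), and the averaged value was 1.03. Without the third transgene female vehicle library the transgene female value was 1.59 and passed (adjusted p = 0.0013). DESeq2 and limma-voom gave 1.26 and 1.32 in transgene females (adjusted p = 4.9e-08 and 0.0353). The averaged call held when any single library was left out. It was lost when transgene females or transgene males were left out of the average (0.66, adjusted p = 0.176, and 0.82, adjusted p = 0.0639).

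The promoter of Nrip1 is shown with those of Ncoa1, the member that was lower, and of Greb1, a known oestrogen target, because these are the genes in which a receptor site would be looked for first. Each window runs from 250 bases before to 50 bases after a RefSeq start site on GRCm38.p6, 5′ to 3′ on the gene's strand. Capitals mark TGACC or its complement GGTCA, the half-site of the oestrogen response element, and AGAACA, the half-site of the glucocorticoid and progesterone receptor element, searched on both strands.
Nrip1, chr16:76373778-76374077, - strand: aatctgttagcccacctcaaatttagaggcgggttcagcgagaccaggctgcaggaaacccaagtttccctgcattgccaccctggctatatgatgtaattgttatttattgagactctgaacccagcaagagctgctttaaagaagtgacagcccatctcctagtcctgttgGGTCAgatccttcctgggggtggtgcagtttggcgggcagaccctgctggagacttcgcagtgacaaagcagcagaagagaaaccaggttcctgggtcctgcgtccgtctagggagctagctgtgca
Ncoa1, chr12:4477133-4477432, - strand: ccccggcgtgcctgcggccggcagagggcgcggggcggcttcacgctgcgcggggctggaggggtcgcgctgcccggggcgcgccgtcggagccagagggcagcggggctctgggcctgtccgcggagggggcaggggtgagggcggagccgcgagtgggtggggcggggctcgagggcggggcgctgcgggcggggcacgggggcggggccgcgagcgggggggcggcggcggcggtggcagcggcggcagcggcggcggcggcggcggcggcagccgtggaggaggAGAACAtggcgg
Greb1, chr12:16800837-16801136, - strand: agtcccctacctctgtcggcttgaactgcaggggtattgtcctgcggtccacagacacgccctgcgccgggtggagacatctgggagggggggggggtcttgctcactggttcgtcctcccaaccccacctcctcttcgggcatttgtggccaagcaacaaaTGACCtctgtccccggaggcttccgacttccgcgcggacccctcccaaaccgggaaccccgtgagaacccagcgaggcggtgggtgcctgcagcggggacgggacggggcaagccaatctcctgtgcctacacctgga

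The Nrip1 window holds 1 oestrogen half-site, 77 bases before the start, and the Greb1 window holds 1, 88 bases before the start. The Ncoa1 window holds no oestrogen half-site, and 1 AGAACA that begins at base 39 after the start. It also holds the GC box GGGCGG 7 times, and 84.7% of its bases are G or C, against a median of 52.7% over all promoters. Nrip1 and Greb1 each have a second RefSeq start, not printed here; that of Nrip1 holds no half-site of either kind, and that of Greb1 holds 2 oestrogen half-sites. RefSeq windows were searched for 8 of the 9 genes, 11 windows in all, and Nr3c1 was left out of this search. None of the 11 held the full palindrome GGTCANNNTGACC, which 23 of 32841 windows of this length (0.07%) hold. The half-site TGACC stands in 40.5% of all windows and AGAACA in 19.0%, so a match in 1 window describes the letters only.

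Other measures also differed between treatments, in strata that only partly matched those of Nrip1, whose groups did not overlap in transgene females and transgene males. Arntl, a core gene of the circadian clock named here after its values were seen, was lower after tamoxifen in 3 strata without overlap. Transgene females had 28.7 to 37.6 CPM after vehicle and 6.36 to 11.97 CPM after tamoxifen, flox females 19.8 to 30.3 and 9.91 to 15.5 CPM, and flox males 8.09 to 24.7 and 2.93 to 5.59 CPM. Transgene males overlapped, at 17.1 to 26.8 CPM and 12.4 to 18.3 CPM. In flox females Arntl did not overlap between treatments while Nrip1 did. The third flox male vehicle library, with the high Nrip1, had the lowest Arntl of its group at 8.09 CPM and the highest Per1, another clock gene, at 131.9 CPM against 27.3 and 43.2 CPM. The part of the clock genes in the Nrip1 result was not tested. Of 10 lists of cell type markers, 65 genes of which none was at 0 in a whole group, summed levels did not overlap between treatments in 3 of 40 list and stratum pairs. These were fibroblasts in transgene males (370.3 to 518.4 CPM after vehicle and 540.5 to 566.9 after tamoxifen), macrophages in flox males (57.7 to 85.2 and 47.6 to 55.1) and satellite cells in flox males (30.0 to 35.8 and 37.4 to 39.1). Slow fibre sums overlapped between treatments in every stratum but varied widely, from 123 to 7146 CPM over the 24 libraries. Within transgene males after tamoxifen alone they ran from 123 to 2411 CPM. The part of these cell and fibre markers was not tested either.

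Nr3c1 (chr18:39410545-39519421, - strand), the glucocorticoid receptor gene, was 0.25 ± 0.08 higher after tamoxifen in the average over strata (edgeR, adjusted p = 0.0471). It was 99.6, 101.7 and 102.9 CPM after vehicle and 110.1, 114.8 and 121.5 CPM after tamoxifen in transgene females, and 95.8, 99.2 and 112.3 CPM against 130.8, 134.9 and 172.6 CPM in transgene males. In both transgene sexes the groups did not overlap, and in both flox sexes they did. Flox females had 78.3, 103.8 and 108.3 CPM against 83.6, 98.3 and 103.4 CPM, and flox males 66.6, 78.7 and 116.4 CPM against 100.9, 112.2 and 114.0 CPM.

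The averaged Nr3c1 call lay close to the threshold. It was lost in 24 of 33 alternative settings, among them 18 of the 24 that leave out 1 library, with adjusted p of 0.00231 to 0.0956 over those 24. Within strata the log2 fold changes were 0.20 ± 0.07 for transgene females (edgeR, adjusted p = 0.214), -0.03 ± 0.13 for flox females (0.979), 0.52 ± 0.17 for transgene males (0.283) and 0.32 ± 0.17 for flox males (0.367). Without the third flox male vehicle library, which had the highest Nr3c1 of its group, the flox male value was 0.57 and passed (adjusted p = 0.0469), and the average was 0.32 (0.00231).

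Ncoa1 (chr12:4247362-4477182, - strand), the coactivator gene, was slightly lower after tamoxifen. The averaged log2 fold change was -0.18 ± 0.05 (edgeR, adjusted p = 0.035), and its mean was lower in 4 of 4 strata. It was 45.6, 47.6 and 52.4 CPM after vehicle and 41.9, 42.7 and 44.4 CPM after tamoxifen in transgene females, and 39.6, 42.5 and 45.2 CPM against 34.1, 37.6 and 38.6 CPM in flox males, with no overlap in either. Transgene males had 46.5, 49.8 and 57.5 CPM against 38.5, 45.4 and 49.9 CPM, and flox females 41.8, 42.3 and 43.1 CPM against 33.7, 37.5 and 45.3 CPM. These groups overlapped. The averaged call was lost in 16 of 33 settings, 12 of them leaving out 1 library, with adjusted p of 0.00863 to 0.0796 over the 24 single removals. It was also lost whichever stratum was left out. Without the third flox male vehicle library it held at -0.19 (adjusted p = 0.0308), and the flox male value was -0.27 (0.301).

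**Figure D3:**
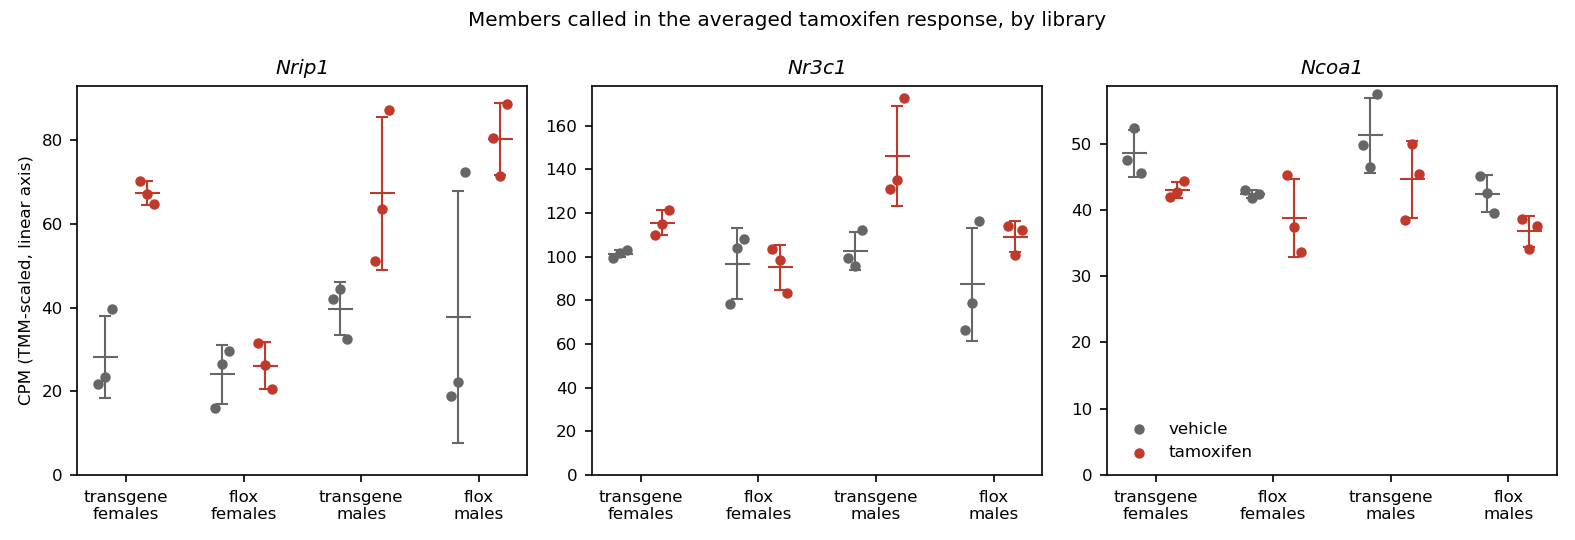
CPM of Nrip1, Nr3c1 and Ncoa1 in each library by sex, genotype and treatment, with the group mean and SD (n = 3) as bars. Nrip1 reached 51.2 CPM or more in all tamoxifen libraries other than those of flox females, and 1 flox male vehicle library lies at 72.4 CPM.

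**Figure D4:**
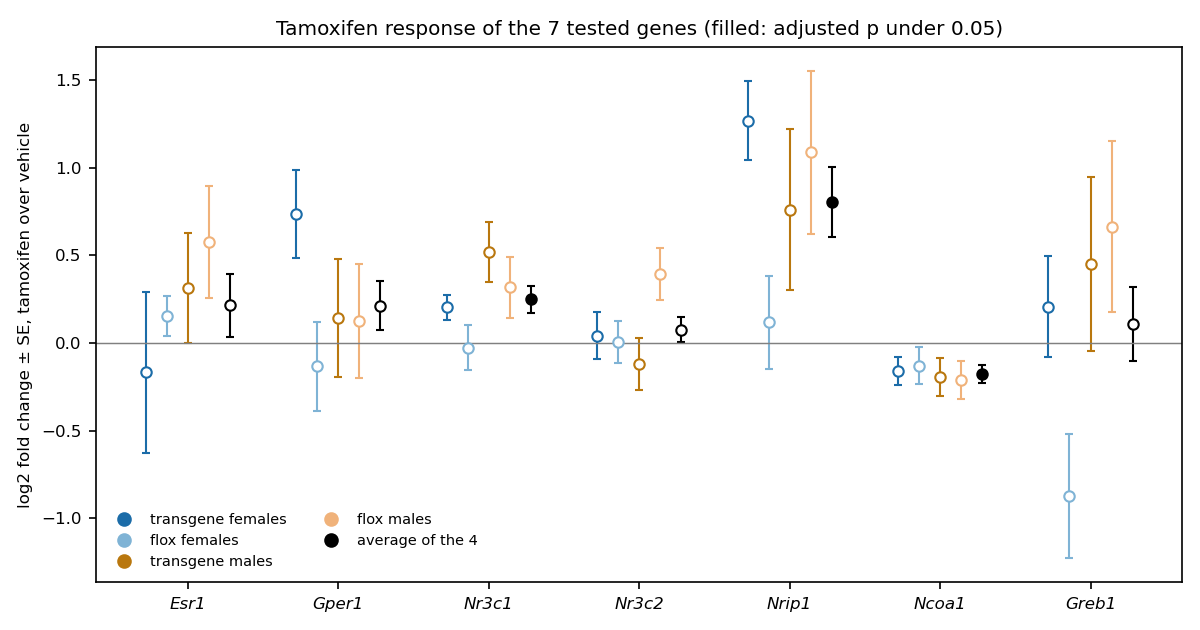
Log2 fold change of tamoxifen over vehicle with its SE for the 7 tested genes in each stratum and in their average; filled points have an adjusted p under 0.05. The only filled points are the averages of Nr3c1, Nrip1 and Ncoa1. Esr1 in the transgene strata and in the average includes MerCreMer reads.

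Whether the tamoxifen response differed between genotypes or sexes was tested directly, and no member passed either test by edgeR, DESeq2 or limma-voom. For Esr1 these tests mix MerCreMer reads with endogenous reads, so they do not compare responses of the endogenous gene. Between transgene and flox 0.012% of all genes were called and 0 members had an unadjusted p under 0.05. Nrip1 had a difference of 0.40 ± 0.40 (edgeR, adjusted p = 0.865), or -0.036 without the third flox male vehicle library, so the contrast between transgene and flox females cannot be read as a dependence on the transgene. Between females and males 0.708% of genes were called, and 2 members and 12% of genes had an unadjusted p under 0.05. These were Greb1, with females minus males at -0.90 ± 0.43 (edgeR, adjusted p = 0.401), and Nr3c1 at -0.34 ± 0.15 (adjusted p = 0.387).

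Gper1 (chr5:139423151-139427800, + strand), the membrane oestrogen receptor gene, had 14 to 53 counts per library. In transgene females it was 0.67, 0.71 and 0.87 CPM after vehicle and 1.02, 1.27 and 1.45 CPM after tamoxifen, without overlap (log2 fold change 0.74 ± 0.25, edgeR, adjusted p = 0.192). In the other 3 strata the groups overlapped, with log2 fold changes of -0.13 to 0.14 and adjusted p of 0.886 to 0.936. The flox male value of 0.13 was -0.068 without the third vehicle library. Nr3c2 (chr8:76899442-77245012, + strand), the mineralocorticoid receptor gene, lay between 11.2 and 18.3 CPM in all 24 libraries. It was 11.2, 12.6 and 12.7 CPM after vehicle and 14.2, 15.5 and 18.3 CPM after tamoxifen in flox males (log2 fold change 0.39 ± 0.15, edgeR, adjusted p = 0.186, and 0.41 with adjusted p = 0.253 without the third vehicle library). In the other strata its groups overlapped.

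Pgr (chr9:8899833-8968611, + strand) is a classical oestrogen target as well as a receptor gene, and 12 of 24 libraries had no count of it. It was under the filter on low counts in every fit. In flox males it had 1, 1 and 0 counts after vehicle and 5, 11 and 4 after tamoxifen, a ratio of 9.21 with an exact 95% interval of 2.24 to 81.2. In transgene females it had 0 counts in 3 vehicle libraries, which allows up to 0.0294 CPM (3 counts over the group), and 4, 3 and 2 after tamoxifen. That is at least 2.71-fold higher when set against this floor, and the exact 95% lower limit of the ratio, which also takes in the counting error of the 9 tamoxifen counts, is 1.78. Transgene males had 0 counts in 3 vehicle libraries and 1, 0 and 1 after tamoxifen, and flox females 2, 0 and 0 against 0, 1 and 0. The intervals and limits cover counting error only. Without the filter the log2 fold change was 3.02 in flox males (edgeR, adjusted p = 0.159) and averaged 2.39 over strata (adjusted p = 0.139), so neither passed the test over all genes.

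Esr2 (chr12:76120419-76177259, - strand) had 0 to 15 counts in 23 libraries and 53 in the first flox female tamoxifen library. The other two libraries of that group had 2 each, and flox females after vehicle had 0, 4 and 0. Transgene females had 3, 6 and 1 counts after vehicle and 4, 15 and 11 after tamoxifen, a ratio of 2.71 (exact 95% interval 1.29 to 6.21, counting error only). Flox males had 1, 0 and 0 against 1, 2 and 8, a ratio of 10.1 (1.47 to 435.9), and transgene males 1, 5 and 0 against 0, 2 and 0, a ratio of 0.34 (0.0336 to 1.90). Without the filter the adjusted p was 0.274, 0.418 and 0.843 in these strata (edgeR), and no difference of Esr2 was detectable at this depth over the spread between libraries.

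Greb1 (chr12:16670615-16800886, - strand), whose product is a cofactor of the oestrogen receptor in breast cancer cells, had 7 to 70 counts per library. In flox females it was 0.71, 1.29 and 1.79 CPM after vehicle and 0.56, 0.67 and 0.83 CPM after tamoxifen (log2 fold change -0.88 ± 0.35, edgeR, adjusted p = 0.528). In the other 3 strata the log2 fold change was 0.21 to 0.67 with overlapping groups and adjusted p of 0.524 to 0.848. An antisense gene, Gm48140, shares 736 bases of Greb1 exons on the other strand (7.68%), and without a stated strand setting its reads cannot be told apart there.

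The other genes of the pathway were taken from lists of known members. Of 23 oestrogen target genes, 19 were tested in the averaged response: 2 rose, 5 fell and 12 did not pass, with a median log2 fold change of -0.09, where 8.83% of all genes were called. The risers were Stc2, which encodes a secreted glycoprotein, and Xbp1, a transcription factor of the unfolded protein response. Xbp1 was higher by 0.52 ± 0.07 (edgeR, adjusted p = 5.08e-05), at 38.1 to 54.2 CPM in vehicle-treated males and 71.5 to 87.6 CPM in tamoxifen-treated males. In transgene females it was 61.6 to 69.6 CPM against 73.6 to 98.8 CPM, and in flox females 66.7 to 108.5 CPM against 88.3 to 110.7 CPM, with overlap. The 5 that fell included C3, a complement gene (-0.76 ± 0.22, edgeR, adjusted p = 0.0369) and Rara, a retinoic acid receptor gene (-0.43 ± 0.09, adjusted p = 0.00254). The C3 call was lost in 17 of 24 single removals, and without flox females, flox males or transgene females. The Rara call was lost without flox males or transgene females. In flox males 2 of 19 rose and 4 fell, where 2.89% of all genes were called. Among those that fell was Ret, a receptor tyrosine kinase gene, at -1.20 ± 0.23 (edgeR, adjusted p = 0.0152, and -1.07 with adjusted p = 0.0449 without the third vehicle library).

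Stc2 differed in direction between transgene females and males. It was 8.75, 10.8 and 11.9 CPM after vehicle and 4.16, 4.40 and 6.37 CPM after tamoxifen in transgene females. In transgene males it was 0.95, 1.16 and 2.15 CPM against 4.10, 4.49 and 6.35 CPM, and in flox males 0.32, 0.84 and 1.12 CPM against 2.63, 3.20 and 4.43 CPM. In flox females the groups overlapped, with 5.60, 6.87 and 7.73 CPM against 6.86, 8.97 and 11.5 CPM, and the mean was higher after tamoxifen, so the lower values in females are those of transgene females alone. None of the other 3 pairs overlapped, and each passed the test, at -1.06 ± 0.19 (edgeR, adjusted p = 0.0359), 1.83 ± 0.37 (0.0387) and 2.12 ± 0.40 (0.0131). The single-stratum calls were lost in 4 of 6, 9 of 12 and 2 of 12 removals of 1 library. The difference between the sexes passed (females minus males -2.30 ± 0.31, edgeR, adjusted p = 0.00089) and held in all 24 removals. Without the third flox male vehicle library the flox male value was 1.78 (adjusted p = 0.0288). The averaged rise of Stc2, 0.83 ± 0.16 (edgeR, adjusted p = 0.0018), was lost without flox males (0.40, adjusted p = 0.177) or without transgene males (0.50, adjusted p = 0.0766).

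Of the 21 glucocorticoid target genes, all were tested. In the averaged response 2 rose and 0 fell, with a median log2 fold change of 0.18. An unadjusted p under 0.05 was found for 8 of them (edgeR), and for 22.3% of all genes. The 2 calls of 21 are near the 8.83% called over all genes. The risers were Per1 (0.77 ± 0.23, edgeR, adjusted p = 0.0424, lost in 19 of 24 single removals, and without flox females or transgene females) and Klf9, a transcription factor gene (0.23 ± 0.06, adjusted p = 0.0214, lost without flox females, flox males or transgene females). In flox females Per1 was 35.9, 42.9 and 48.9 CPM after vehicle and 138.4, 157.0 and 177.2 CPM after tamoxifen (1.89 ± 0.13, edgeR, adjusted p = 0.00117), while Nr3c1 in the same libraries overlapped between treatments. In flox males Cebpd, a transcription factor gene, rose by 1.64 ± 0.24 (edgeR, adjusted p = 0.00496, and 1.72 with adjusted p = 0.0154 without the third vehicle library). After vehicle, where 0.947% of all genes were called, 3 of the 21 were higher in transgene than in flox males: Cebpd (2.11 ± 0.24, edgeR, adjusted p = 0.00183), Sgk1 (1.02 ± 0.11, adjusted p = 0.000463) and Errfi1 (0.97 ± 0.15, adjusted p = 0.0101). After tamoxifen, Pdk4 and Cdkn1a were lower in transgene males (-2.07 ± 0.50 and -1.36 ± 0.34, edgeR, adjusted p = 0.0486 and 0.0498), calls lost in 11 and 10 of 12 single removals.

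Sgk1, a kinase gene induced by glucocorticoids and mineralocorticoids, responded differently by genotype. In flox animals it went from 81.6, 97.6 and 111.9 CPM to 139.7, 145.5 and 197.2 CPM in females and from 119.1, 127.0 and 133.9 CPM to 173.0, 178.1 and 207.1 CPM in males. In transgene animals it went from 209.0, 240.6 and 279.8 CPM to 170.3, 219.3 and 227.6 CPM in females and from 236.6, 253.9 and 287.2 CPM to 191.0, 202.7 and 230.0 CPM in males. The difference of the responses, transgene minus flox, was -0.92 ± 0.14 (edgeR, adjusted p = 0.0144). It was lost without the third flox female vehicle library (adjusted p = 0.0518) or the third flox male tamoxifen library (0.0502).

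**Figure D5:**
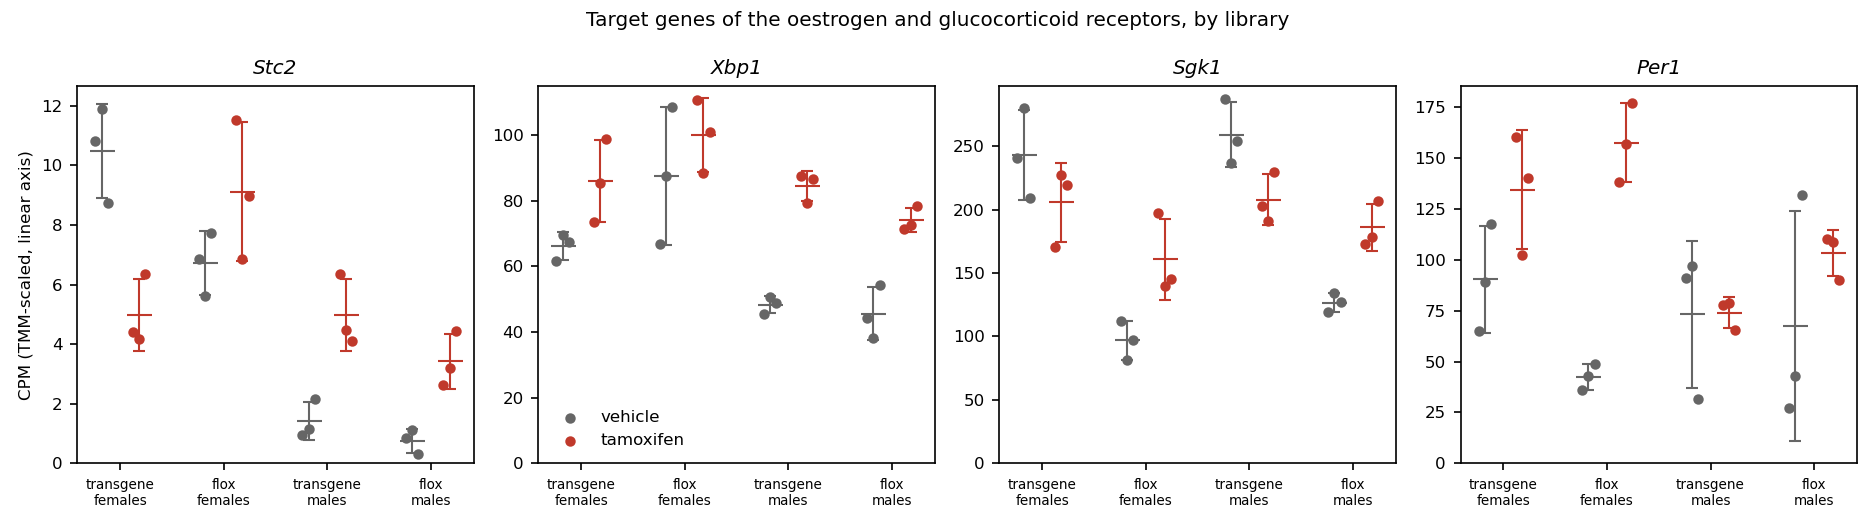
CPM of Stc2 and Xbp1, oestrogen targets, and of Sgk1 and Per1, glucocorticoid targets, in each library by sex, genotype and treatment, with group mean and SD (n = 3). Stc2 falls after tamoxifen in transgene females and rises in both male strata, and Sgk1 after vehicle is at 209.0 CPM or more in transgene and at 133.9 CPM or less in flox libraries.

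Of 36 other coregulator genes, 33 were tested in the averaged response, and 0 rose while 3 fell, a share near the 8.83% of all genes called, with 12 of 33 log2 fold changes above 0. Among them were Ctbp2, a corepressor gene (-0.28 ± 0.05, edgeR, adjusted p = 0.0018), and Ep300, an acetyltransferase gene (-0.18 ± 0.05, adjusted p = 0.0163). Ctbp2 held in all 33 alternative settings, and Ep300 was lost without flox females or transgene females. The 8 tested receptors on a list of other steroid receptors had no call by edgeR in any of the 9 comparisons. In each, 0 to 2 of them had an unadjusted p under 0.05, as did 8.01% to 22.3% of all genes.

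Across libraries, after the group means were removed, Nrip1 and Nr3c1 varied together (Pearson's r = 0.834 over 24 libraries, and 0.664 over the 23 without the third flox male vehicle library). Over the 24 libraries Nrip1 was the second most similar of 8743 genes to Nr3c1, after Rragc (0.842) and before Snapc3 (0.819). Without the third flox male vehicle library Snapc3 was at 0.758 and Rragc at 0.704, both above Nrip1. The genes most like Nrip1 were Myf6, a muscle transcription factor gene (0.864), Usp13 (0.856) and Rbm20 (0.846). Those most like Ncoa1 were Prkar2a (0.898), Mast4 (0.887) and Stxbp3 (0.883), and those most like Nr3c2 were Dip2c (0.745), Pygo1 (0.722) and Hdac9 (0.718). For Esr1, over the 12 flox libraries, they were Ccdc181 (0.966), Entpd6 (0.926) and Mia2 (0.924). Without that library the values for Nrip1 were 0.709, 0.594 and 0.704. Ncoa1 had an r of -0.11 with Nrip1 and 0.134 with Nr3c1, and without that library 0.102 and 0.403. The 24 values share libraries, their scaling and 3 tables, and the third flox male vehicle library has high values of both Nrip1 and Nr3c1.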

How the data were processed

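RNA of 24 mouse gastrocnemius samples, 8 groups of 3, was sequenced. The authors deposited raw counts, whole numbers of reads for each Ensembl gene without normalization, in 3 tables. The submitters' processing notes name STAR, featureCounts and limma, with GRCm38 and mm10 as builds. Versions, strand setting and library kit were not given in the sources used here. Of 54752 identifiers, 54723 were matched to a symbol. Coordinates are those of GENCODE on GRCm38, and promoter windows are RefSeq's on GRCm38.p6.

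Tests were run on the counts with edgeR 4.0.16 in R 4.3.3: TMM scaling, filterByExpr (minimum count 10, minimum total 15), robust quasi-likelihood F-test, Benjamini-Hochberg adjustment over all genes tested, threshold 0.05. Two-sided tests are meant throughout. Female strata were fitted on their own 6 libraries, males on all 12, and averaged responses and their differences on all 24 with 1 mean per group. SE is the log2 fold change divided by the square root of F. Pgr and Esr2 were under the filter and are given as counts, with exact binomial 95% intervals of the ratio.

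Alternatives were DESeq2 1.42.0, limma-voom (limma 3.58.1), RLE scaling, no filter, other sample sets and leaving out each library. Averages over 3 strata, and all alternatives for list genes, were added after the data were seen. The 24 replicate pairs differed by more than sampling noise (chi-square per degree of freedom 9.22 to 116.8). On simulated counts the averaged test recovered 34% of genes changed 1.25-fold and 86% of those changed 2-fold (16670 genes). The 4 single-stratum tests (14211 to 15628 genes) recovered 0% to 6% and 48% to 70%. Of the calls on simulated counts, 9.43% were false in transgene females and 11.4% in flox females. The share was 3.66% in transgene males, 2.47% in flox males and 3.42% for the average. It was 6.9% and 4.3% between male genotypes after vehicle and tamoxifen, 6.74% for transgene minus flox and 5% for females minus males. In both female strata, male genotypes after vehicle and transgene minus flox it exceeded the share the threshold allows, a limit on calls named there.

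The 9 members and all lists were chosen with earlier results of these data known. Text names all members, up to 4 genes per list and comparison with the largest called change, and the 3 genes most correlated with each member of at least 1 CPM. Arntl and Hspa1a were named after their values were seen, and Numb and Numbl as the floxed genes. Some list genes are not reported here.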

Additional observations from a re-analysis of the deposited data

Results flagged for a closer look

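The response of Stc2 to tamoxifen differed between the sexes by the test of the difference itself. The mean response of females minus that of males was -2.30 ± 0.31 on the log2 scale (edgeR, adjusted p = 0.00089), with lower values after tamoxifen in all 3 transgene females and higher values in all 6 tamoxifen-treated males than in any vehicle-treated library of their stratum. In flox females the groups overlapped and the mean was higher after tamoxifen, 6.73 CPM after vehicle and 9.12 CPM after tamoxifen, the direction of the males, while transgene females went from 10.49 to 4.98 CPM. Sex and table cannot be told apart.

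The response of Sgk1 differed between genotypes in the same kind of test. The mean response of transgene minus that of flox was -0.92 ± 0.14 (edgeR, adjusted p = 0.0144). In both flox sexes every tamoxifen library was above every vehicle library.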

How the results depend on the processing

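Counts assigned to Esr1, which include MerCreMer reads in transgene males, stayed called between male genotypes in all 17 alternatives of both comparisons. Of 1260 alternative values of single members, 1175 kept direction and side of the threshold, 42 lost and 6 gained a call, and 37, none of them called, changed sign; of 758 for list genes, 581 kept both and 177 lost the call. In transgene females 1 member, Nrip1, was called by DESeq2 and 1 by limma-voom, and 0 to 1 when a library was left out. In flox males it was 0 to 2 without 1 library and 1, Esr1, when only those 6 males were fitted. The averaged response called 1 to 3 members without 1 library, 1 with flox males left out, and 0 with transgene females or 0 with transgene males left out; the cause was not tested. Sign changes outside single removals were Greb1 in the averaged response (-0.079 without flox males, -0.005 without transgene males), Nr3c2 there (-0.032 without flox males) and Nr3c2 in flox females without the filter (0).

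Ranges over single removals of values that crossed 0 were, for the tamoxifen response in transgene females, -0.63 to 0.19 (Esr1) and -0.067 to 0.18 (Nr3c2); in flox females -0.16 to 0.059 (Nr3c1), -0.10 to 0.081 (Nr3c2) and -0.11 to 0.29 (Nrip1); in transgene males -0.089 to 0.59 (Esr1), -0.074 to 0.42 (Gper1) and -0.25 to 0.031 (Nr3c2); in flox males -0.068 to 0.29 (Gper1). Between male genotypes they were -0.46 to 0.13 (Greb1) and -0.25 to 0.95 (Nrip1) after vehicle and -0.67 to 0.11 (Greb1) after tamoxifen. For the average they were -0.002 to 0.20 (Greb1), for transgene minus flox -0.058 to 0.056 (Ncoa1) and -0.036 to 0.56 (Nrip1), and for females minus males -0.002 to 0.11 (Ncoa1).

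Replicate numbers are shared by flox females only. A fit with the replicate number as a block called 0 members, as did the fit without it. Same-numbered libraries did not deviate together (r = -0.2, -0.03 and -0.10), so no pairing was seen. With 3 libraries per group this check could not exclude a pairing. Depth limits Pgr and Esr2.

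Calls over all genes moved by more than 1.5 times in these cases. DESeq2 gave 681 against 187 in transgene females, 143 against 19 in flox females, 317 against 139 in transgene males, 866 against 452 in flox males, 594 against 148 and 1301 against 817 between male genotypes after vehicle and tamoxifen, 20 against 2 for transgene minus flox and 314 against 118 for females minus males. Without the filter, with the same comparisons, it was 941, 329, 221 (transgene males), 327 (male genotypes after vehicle) and 6 (transgene minus flox). Limma-voom gave 10 in flox females, a fit with additive strata 1 for transgene minus flox, and fits of 6 males 27 and 917 in transgene and flox males. The average gave 1472, and 516 without flox males or 806 without transgene females. Leaving out 1 library gave as few as 37, 3, 68 and 143 in the 4 strata, 44 and 280 between male genotypes and 1 for transgene minus flox, and as many as 87 in flox females, 6 for transgene minus flox and 209 for females minus males.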

Other observations

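Of the 16 chaperone genes of steroid receptors, all were tested in the averaged tamoxifen response, and 1 rose, Stub1, a ubiquitin ligase gene (log2 fold change 0.22 ± 0.04, edgeR, adjusted p = 0.00295, lost without flox males). The other 15 did not pass, where 8.83% of all genes were called. Stub1 went against most of its list, in which 3 of 16 log2 fold changes were above 0 and the median was -0.15. Of the 16, 8 had an unadjusted p under 0.05 (edgeR), as did 22.3% of all genes. The third flox male vehicle library, with the high Hspa1a, enters these values. Of 19 genes of steroid hormone enzymes, 11 were tested and 1 fell, H6pd, which encodes the enzyme that supplies NADPH to the cortisone-activating enzyme (-0.25 ± 0.07, edgeR, adjusted p = 0.017, lost without flox males or transgene males).

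Trim24, a coregulator gene, fell in flox males (-0.33 ± 0.08, edgeR, adjusted p = 0.0418), a call lost in 10 of 12 removals of 1 library, among them the third flox male vehicle library (-0.26, adjusted p = 0.118). Wnt4, a signalling gene, fell in transgene females (-0.63 ± 0.11, edgeR, adjusted p = 0.0374), at 39.7, 44.9 and 46.5 CPM after vehicle and 23.5, 30.1 and 30.2 CPM after tamoxifen; it was lost in 4 of 6 removals. Ccnd1, a cell cycle gene, was lower in transgene than in flox males after vehicle (-0.91 ± 0.14, edgeR, adjusted p = 0.00808).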
